A study of Mus musculus with 4 samples.

Results

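AMP-activated protein kinase (AMPK) subunit genes and the gene of its upstream kinase were followed by RNA sequencing in mouse hearts with and without overexpression of the T-box transcription factor Tbx20. The 8 genes were chosen by name from the deposited expression table, which held 23439 gene symbols usable here: the alpha subunit genes Prkaa1 and Prkaa2, the beta subunit genes Prkab1 and Prkab2, the gamma subunit genes Prkag1, Prkag2 and Prkag3, and Stk11. All 8 were listed, and 7 had a mean of at least 1 FPKM and entered the test, which covered 10513 genes. FPKM counts the fragments of a gene relative to its transcript length and to the library's total of mapped fragments. Prkag3, with a mean of 0.948 FPKM, did not pass that filter and is described by its levels alone.

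Control hearts had the genotype alphaMHCMerCreMer+/-, an inducible Cre recombinase driven by the cardiomyocyte promoter of alpha myosin heavy chain. The overexpressing hearts, here called Tbx20_OE, had the genotype alphaMHCMerCreMer+/-;CAGCATTbx20, the same Cre with a Tbx20 transgene that it switches on. Both groups therefore carried the Cre, and the transgene was induced in cardiomyocytes at 8 weeks of age. Hearts were taken 4 weeks later, at 12 weeks, with 2 libraries in each group, and the labels' protocols describe RNA taken from each heart separately. Tbx20 itself was at 6.99 and 4.58 FPKM in the control hearts and at 11.03 and 16.4 FPKM in the Tbx20_OE hearts, so every library followed its label. The comparison asks what differs in the adult heart transcriptome after Tbx20 has been raised in its muscle cells.

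AMPK is a heterotrimer of a catalytic alpha, a scaffolding beta and a nucleotide-binding gamma subunit, and it senses the fall in cellular energy that raises AMP and ADP. Stk11, also called Lkb1, phosphorylates the activation loop of the alpha subunit, and active AMPK then promotes fuel uptake and oxidation and restrains synthesis and growth. In heart muscle AMPK is known for its part in fatty acid oxidation, glucose uptake and the response to ischaemia, and Prkag2 mutations cause a glycogen storage cardiomyopathy in humans.

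Paralogous genes share reads that match both without a mismatch only where their transcripts are identical. The longest run of bases shared by the GENCODE transcripts of Prkaa1 and Prkaa2 was 35 bases, and that shared by Prkab1 and Prkab2 was 23 bases, both inside the coding part of each gene. They are shown because a read must lie within such a run to match both genes without a mismatch. Longer stretches that are alike but not identical were not measured, so reads placed with mismatches are not covered.
Prkaa1 and Prkaa2: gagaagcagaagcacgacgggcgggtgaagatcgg
Prkab1 and Prkab2: ggagagcatcagtacaagttctt
Among the gamma genes the longest shared runs were shorter, from 11 to 17 bases.

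Promoter sequences of all 8 genes, from RefSeq on GRCm38.p6, cover 250 bases before and 50 bases after 10 annotated starts. They were searched on both strands for the letters AGGTGT, a core of the T-box motif, whose reverse complement reads ACACCT. Of the 10 windows 1 held it, a window of an inner start of Prkag2, and over 32851 promoters of the same length 13.7% held it. The longer form AGGTGTGA, which contains the core, was in 0 of the 10 and in 1.28% of all. The Prkag2 window is shown for this match, in capitals, whose first letter is at position -188 from the start. The windows of Prkaa1, Prkab1 and Prkab2, with no match, are shown because both Tbx20_OE libraries lay above both controls for these genes. That placement was found for 28.1% of all tested genes.
Prkag2 (chr5:24908460-24908759, minus strand): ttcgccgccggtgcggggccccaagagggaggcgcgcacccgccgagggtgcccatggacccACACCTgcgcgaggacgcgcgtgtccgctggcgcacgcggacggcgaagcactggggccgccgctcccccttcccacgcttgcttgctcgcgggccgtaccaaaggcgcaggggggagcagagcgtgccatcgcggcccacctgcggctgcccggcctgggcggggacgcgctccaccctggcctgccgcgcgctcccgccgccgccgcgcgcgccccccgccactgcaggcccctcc
Prkaa1 (chr15:5143611-5143910, plus strand): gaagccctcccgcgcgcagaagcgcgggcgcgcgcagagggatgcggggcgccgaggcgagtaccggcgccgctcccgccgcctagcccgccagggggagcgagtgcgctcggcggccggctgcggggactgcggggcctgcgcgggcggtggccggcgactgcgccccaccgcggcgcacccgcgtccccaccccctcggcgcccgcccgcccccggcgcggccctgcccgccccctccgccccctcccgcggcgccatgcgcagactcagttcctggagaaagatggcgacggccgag
Prkab1 (chr5:116024379-116024678, minus strand): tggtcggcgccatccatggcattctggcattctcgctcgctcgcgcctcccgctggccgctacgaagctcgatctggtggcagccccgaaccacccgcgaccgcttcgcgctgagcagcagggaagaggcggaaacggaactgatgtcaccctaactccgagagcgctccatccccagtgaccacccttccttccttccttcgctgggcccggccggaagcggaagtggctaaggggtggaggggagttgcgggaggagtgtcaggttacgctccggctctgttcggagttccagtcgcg
Prkab2 (chr3:97657962-97658261, plus strand): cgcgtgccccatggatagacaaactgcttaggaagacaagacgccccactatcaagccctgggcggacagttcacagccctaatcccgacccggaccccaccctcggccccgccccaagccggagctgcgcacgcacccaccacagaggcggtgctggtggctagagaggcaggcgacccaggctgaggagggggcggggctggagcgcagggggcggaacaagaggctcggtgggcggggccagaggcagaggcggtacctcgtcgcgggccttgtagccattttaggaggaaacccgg
The GC content of these windows was 79.3%, 82.0%, 65.3% and 68.0%, in the order shown, against a median of 52.7% over all promoters. In the windows not shown it ran from 50.3%, at another start of Prkag2, to 72.7% for Prkaa2. A match of letters is a description and not a bound site, and no binding data were used here.

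Control replicate 2 was unlike the rest of the libraries. Over tested genes it correlated with them at 0.927 to 0.957 (Pearson), whereas the remaining 3 correlated among themselves at 0.981 to 0.982. Results that rest on it are therefore given with and without it.

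None of the 7 tested genes passed the test between the groups. Over all 10513 genes the limma test called 2 genes higher, 0.019%, and 0 lower in Tbx20_OE at a Benjamini-Hochberg adjusted p under 0.05, and 0 of the 7 tested AMPK genes were among them. At an unadjusted p under 0.05 there were also 0 of the 7, against 160 genes in all, or 1.52%. Tbx20, the overexpressed gene itself, did not pass either (log2 fold change 1.11, limma unadjusted p = 0.0113, adjusted p = 0.848). A gene that did not pass is therefore not shown to be unchanged. The log2 fold change was positive for 6 of the 7 and negative for Stk11, and the median was 0.28. Over all tested genes 71.1% had a positive fold change and the median was 0.15, so the AMPK genes stood on a background that was itself shifted upward. All fold changes given here compare log2(FPKM + 1), so those of genes near 1 FPKM come out smaller than the ratio of their values. Centring the libraries on their medians took 0.16 from the fold change of a typical gene, and on that scale the values were 0.10 for Prkaa1, 0.52 for Prkaa2, 0.12 for Prkab1, 0.62 for Prkab2, -0.003 for Prkag1, 0.26 for Prkag2 and -0.35 for Stk11.

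Levels differed more between the genes than between the groups. By mean FPKM over the 4 libraries the order was Prkag1 (49.7), Stk11 (48.2), Prkab1 (14.7), Prkaa2 (8.05), Prkag2 (7.16), Prkab2 (4.96), Prkaa1 (2.56) and Prkag3 (0.948). Prkag1 and Stk11 had overlapping ranges, of 40.8 to 54.0 FPKM and 40.8 to 57.1 FPKM. Prkag1 was the higher in each library but control replicate 2, where it was at 40.8 FPKM against 57.1 FPKM for Stk11. Prkab1, from 12.3 to 17.7 FPKM, lay below both of these and above all values of the genes after it. Prkaa2, Prkag2 and Prkab2 had overlapping ranges, and Prkab2 at its lowest, 2.43 FPKM, also fell within the range of Prkaa1. Compared within each of the 4 libraries, however, Prkaa2 and Prkag2 were above Prkab2, and Prkab2 was above Prkaa1. Prkaa2 was above Prkag2 in each library but control replicate 2, where it was at 3.25 FPKM against 4.24 FPKM. Prkag3 was below the other members in all 4 libraries. Prkag1 was above 89.8% of the tested genes by its mean, Prkaa2 above 57.5% and Prkaa1 above 23.9%.

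**Figure D1:**
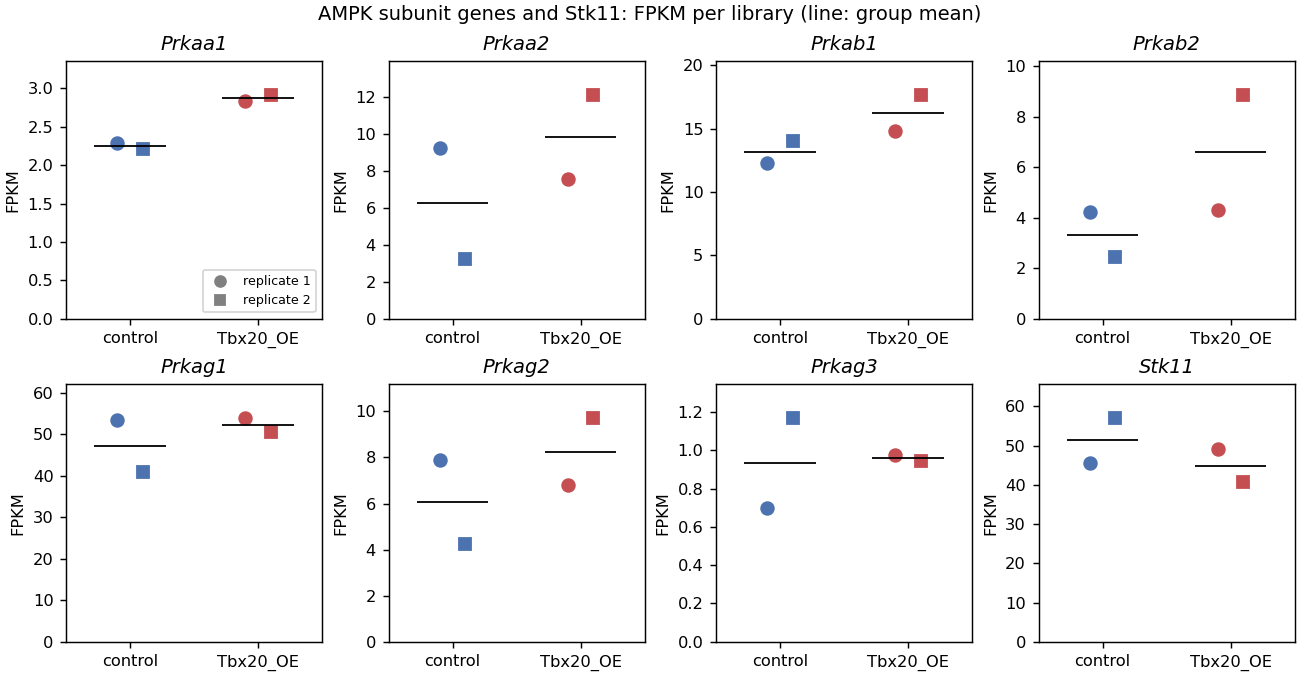
Deposited FPKM (vertical axes, starting at 0) of the 8 genes in each library, with controls in blue, Tbx20_OE in red, circles for replicate 1, squares for replicate 2 and a line at each group mean. Prkaa1 is at 2.28 and 2.20 FPKM in the control hearts and at 2.84 and 2.92 FPKM in the Tbx20_OE hearts, whereas Prkaa2 spreads from 3.25 to 9.26 FPKM within the controls alone.

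The catalytic alpha subunit has an alpha1 form, encoded by Prkaa1 and found in most tissues, and an alpha2 form, encoded by Prkaa2 and abundant in heart and skeletal muscle. Prkaa1, on chromosome 15 from 5143861 to 5181899 of mm10, was at 2.28 and 2.20 FPKM in the control hearts and at 2.84 and 2.92 FPKM in the Tbx20_OE hearts. The libraries of each group were close together, and the lower Tbx20_OE value was 1.24 times the higher control value. Its log2 fold change was 0.26 (standard error 0.18, 95% interval -0.20 to 0.72), and it did not pass (limma adjusted p = 0.848). The Prkaa1 fold change lay between 0.24 and 0.28 whichever library was left out. The Prkaa1 value was 0.10 after median centring and -0.04 with GC-corrected values, a correction that also takes out the shift between libraries. In the authors' deposited table Prkaa1 was at 4.00 FPKM for the controls and 3.74 FPKM for Tbx20_OE. Its sign was therefore not the same under all the ways of deriving it.

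Prkaa2, on chromosome 4 from 105029650 to 105109898, was at 9.26 and 3.25 FPKM in the control hearts and at 7.55 and 12.1 FPKM in the Tbx20_OE hearts. The groups overlapped, with control replicate 1 between the Tbx20_OE libraries and control replicate 2 far below all others. The log2 fold change of Prkaa2 was 0.68 (standard error 0.47, 95% interval -0.49 to 1.85; limma adjusted p = 0.848). Without control replicate 2 it was 0.05 (adjusted p = 1), in a fit that called 0.0571% of all genes higher and 0.152% lower and 0 of the 7 AMPK genes. Without control replicate 1 it was 1.32 and passed (adjusted p = 0.0318), in a fit that takes the spread of the lone control to be that of the Tbx20_OE group. In that fit 11.4% of all genes were called higher and 2.26% lower, and Prkaa2 was the only one of the 7 AMPK genes called.

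The beta subunit holds the complex together and binds glycogen, and its beta2 form is characteristic of muscle. Prkab1, on chromosome 5 from 116013590 to 116024428, was at 12.3 and 14.0 FPKM in the control hearts and at 14.8 and 17.7 FPKM in the Tbx20_OE hearts. Both Tbx20_OE libraries were above both controls, by a narrow margin between the nearest values of 14.0 and 14.8 FPKM. The log2 fold change of Prkab1 was 0.28 (standard error 0.23, 95% interval -0.28 to 0.85; limma adjusted p = 0.848), and 0.12 after median centring. It was 0.37 without control replicate 2.

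Prkab2, on chromosome 3 from 97658212 to 97673067, was at 4.22 and 2.43 FPKM in the control hearts and at 4.32 and 8.87 FPKM in the Tbx20_OE hearts. The groups were separated by very little, since Tbx20_OE replicate 1 was only 1.02 times control replicate 1 and the other libraries of each group lay far to either side. Prkab2 had the largest fold change of the 7 tested genes, a log2 of 0.78 (standard error 0.38, 95% interval -0.16 to 1.72; limma unadjusted p = 0.0882, adjusted p = 0.848). It was 0.33 without Tbx20_OE replicate 2 and 0.47 without control replicate 2.

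Prkab2 was also the only member that the authors selected. In the authors' deposited table it was at 5.30 FPKM for the controls and 8.87 FPKM for Tbx20_OE, with a cuffdiff p-value of 0.03905 and a q-value of 0.999. The authors' written rule for higher genes asked for a p-value under 0.05, a log2 fold change above 0.5 and an FPKM above 3, with a filter on the spread within a condition. In the authors' deposited table it selected 61 genes as higher, 0.475% of those cuffdiff could test, and 114 as lower, 0.887%, with 0 of the 8 AMPK genes. The human form of the symbol then stood among the hits of 28 of the 225 terms in the authors' deposited enrichment table for higher genes. For 4 of these terms, the carnitine shuttle among them (p-value 0.02885, Benjamini-Hochberg q-value 0.286), Prkab2 was the only hit, and the smallest q-value of the 28 terms was 0.109.

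The gamma subunit binds AMP, ADP and ATP, and its gamma3 form is known chiefly from skeletal muscle. Prkag1, on chromosome 15 from 98812797 to 98831508, was at 53.5 and 40.8 FPKM in the control hearts and at 54.0 and 50.6 FPKM in the Tbx20_OE hearts. Control replicate 2 was the low library, and the other 3 were within a few FPKM of each other. The log2 fold change of Prkag1 was 0.16 (standard error 0.25, limma adjusted p = 0.883), and it turned to -0.003 after median centring and to -0.03 without control replicate 2.

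Prkag2, on chromosome 5 from 24862735 to 25100642, was at 7.89 and 4.24 FPKM in the control hearts and at 6.78 and 9.73 FPKM in the Tbx20_OE hearts. The groups overlapped in the same library order as for Prkaa2, an order that 16.6% of all tested genes shared. The log2 fold change of Prkag2 was 0.42 (standard error 0.33, 95% interval -0.41 to 1.25; limma adjusted p = 0.848), and it was 0.04 without control replicate 2. The antisense gene Prkag2os1, which lies inside Prkag2, was listed at 0 in all 4 libraries.

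Prkag3, on chromosome 1 from 74738922 to 74748955, was at 0.701 and 1.17 FPKM in the control hearts and at 0.976 and 0.945 FPKM in the Tbx20_OE hearts, so both Tbx20_OE values lay between the controls. Skeletal muscle markers were near absent. Of 8 such markers 4, namely Myh1, Myh2, Myh4 and Myog, were below 0.1 FPKM in all libraries, and the summed level of the 8 was 1.24 and 2.92 FPKM in the controls and 1.81 and 1.28 FPKM in the Tbx20_OE hearts. Prkag3 and this sum were both highest in control replicate 2 and lowest in control replicate 1, and the part of skeletal muscle in the Prkag3 values was not tested.

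Stk11, on chromosome 10 from 80116536 to 80130470, was at 45.6 and 57.1 FPKM in the control hearts and at 49.0 and 40.8 FPKM in the Tbx20_OE hearts. The groups overlapped, and the order of libraries was the reverse of that of Prkaa2 and Prkag2, with control replicate 2 highest and Tbx20_OE replicate 2 lowest. The log2 fold change of Stk11 was -0.19 (standard error 0.26, 95% interval -0.83 to 0.45; limma adjusted p = 0.868), and -0.03 without control replicate 2. In the authors' deposited table Stk11 was at 49.8 FPKM for the controls and 43.2 FPKM for Tbx20_OE. That table assigns it to a locus from 79697305 to 80369637 shared by 48 genes. The cuffdiff level of Stk11 in the authors' deposited table was 0.968 and 0.962 times the mean of the libraries of each group, while for the 7 subunit genes this ratio lay between 1.27 and 1.79.

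The isoform shares within each subunit class do not depend on the scaling between libraries. Prkaa2 made up 80.2% and 59.6% of the alpha FPKM sum in control and 72.7% and 80.6% in Tbx20_OE. It was the larger alpha transcript in all 4 libraries, by 1.48 times in control replicate 2 and by 2.66 to 4.16 times in the others. The mean share of Prkaa2 was 69.9% ± 14.6 in control and 76.6% ± 5.62 in Tbx20_OE (SD, n = 2), a difference of 6.72 percentage points that turned to -3.59 without control replicate 2. An exact permutation test gave a two-sided p = 0.667 for the Prkaa2 share, and with 2 libraries against 2 such a test cannot go below 0.333.

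In the beta class the ubiquitous form led instead. Prkab2 held 25.6% and 14.7% of the beta sum in control and 22.6% and 33.4% in Tbx20_OE, and Prkab1 the rest. The mean Prkab2 share was 20.2% ± 7.65 and 28.0% ± 7.68 (SD, n = 2), with overlapping groups (exact permutation test, two-sided p = 0.667). The difference of 7.84 percentage points was 2.43 when control replicate 2 was left out and 2.41 when Tbx20_OE replicate 2 was, and it was 13.25 and 13.27 when control replicate 1 or Tbx20_OE replicate 1 was. In the gamma class Prkag1 held between 82.6% and 88.3% in every library and Prkag2 between 9.17% and 15.9%. Prkag3 held 1.13% and 2.53% in control and 1.58% and 1.54% in Tbx20_OE. The Prkag2 difference of 2.49 percentage points was 0.727 without control replicate 2 and 0.0485 without Tbx20_OE replicate 2. The gamma shares overlapped between groups too (exact permutation test, two-sided p = 0.667 for Prkag1 and Prkag2 and p = 1 for Prkag3).

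**Figure D2:**
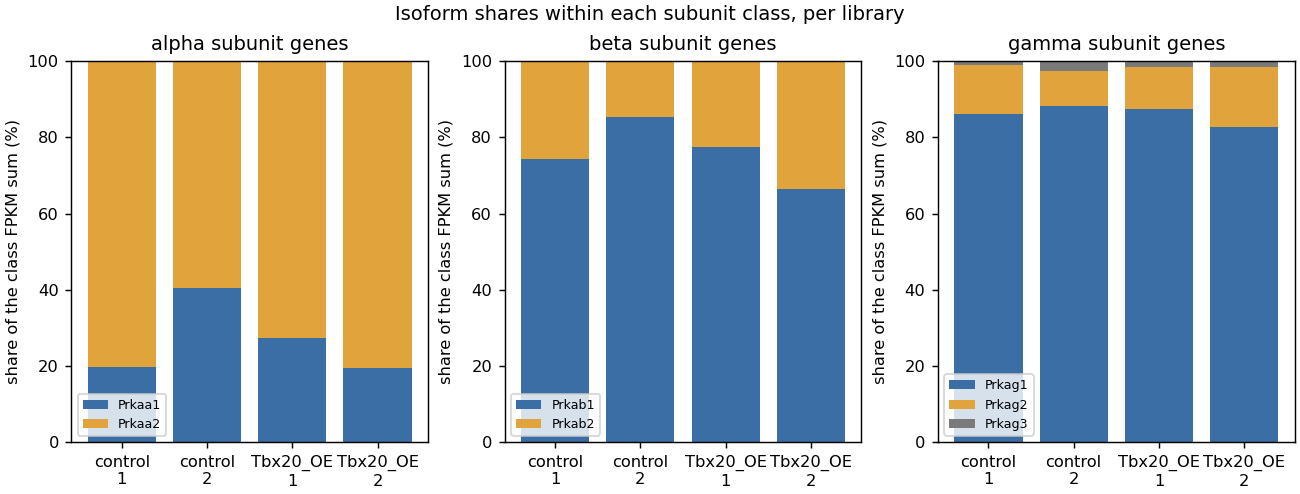
Share of each isoform in the FPKM sum of its subunit class (vertical axes, percent), with a bar for each library. Prkaa2 and Prkag1 are the larger share in every library and Prkab1 holds 66.6% to 85.3% of the beta sum, and the Prkaa2, Prkab2 and Prkag2 shares are lowest in control replicate 2 and highest in Tbx20_OE replicate 2.

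The class sums differed in how the libraries were placed. The alpha sum was 11.5 and 5.46 FPKM in the controls and 10.4 and 15.0 FPKM in the Tbx20_OE hearts, with overlapping groups. The beta sum was 16.49 and 16.45 FPKM in control, nearly equal, and 19.1 and 26.5 FPKM in Tbx20_OE, above both controls. The gamma sum was 62.1 and 46.2 FPKM in the controls and 61.7 and 61.3 FPKM in the Tbx20_OE hearts. Gamma transcripts exceeded alpha transcripts in each library, by 4.07 to 8.47 times, and the largest ratio was again in control replicate 2.

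In control replicate 2 most of the AMPK genes were low. Of the 7 tested AMPK genes 5 were lowest in it, as were 54.3% of all tested genes. Of the 7, 4 subunit genes, Prkaa1, Prkaa2, Prkab2 and Prkag2, were both lowest in control replicate 2 and highest in Tbx20_OE replicate 2, a pattern of 31.4% of all tested genes. Without control replicate 2 the median log2 fold change of the 7 genes was 0.05, against 0.08 over all genes.

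GC content moved with this pattern. Across 10029 genes Spearman's rho between the GC content of the longest transcript and the deviation from the gene's mean was 0.45 in control replicate 2 and -0.38 in Tbx20_OE replicate 2, as a description, since genes share the library. It was -0.30 in control replicate 1 and -0.15 in Tbx20_OE replicate 1. The deviations of a gene sum to 0 over the libraries, so these values are not independent of each other. Prkaa1 and Prkaa2 had GC contents of 40.2% and 40.7%, with only 5.60% and 6.93% of tested genes lower, and Stk11 had 59.5%, above 94.5% of them. The deviation of control replicate 2 was -0.98 for Prkaa2, -0.69 for Prkab2 and -0.59 for Prkag2, beyond the medians of their GC bins of -0.38, -0.25 and -0.11, and it was 0.25 for Stk11 against 0.14. Prkaa1, at -0.15, deviated less than its bin. The GC correction subtracted, in each library, the median deviation of a gene's GC bin. It therefore also took out the shift between libraries that median centring removes. With it the log2 fold changes were 0.38 for Prkaa2, 0.55 for Prkab2, 0.30 for Prkag2, 0.23 for Prkab1, 0.06 for Prkag1, -0.04 for Prkaa1 and -0.14 for Stk11. Median centring alone gave, in the same order, 0.52, 0.62, 0.26, 0.12, -0.003, 0.10 and -0.35. With GC-corrected values 0 of the 7 passed (limma adjusted p from 0.985 to 0.991).

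**Figure D3:**
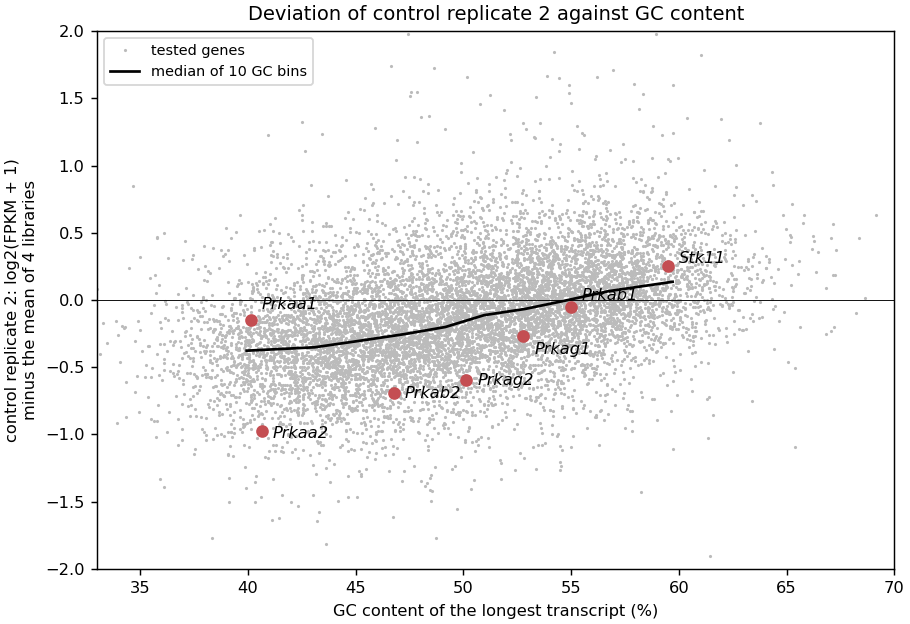
GC content of the longest transcript (horizontal axis, percent) against the deviation of control replicate 2 from the mean of the 4 libraries (vertical axis, log2(FPKM + 1)), for 10029 tested genes in grey, the 7 AMPK genes in red and the median of 10 GC bins as a line, with 38 genes outside the axes. Prkaa2, Prkab2 and Prkag2 lie below the line, Prkaa1 above it, and Stk11 at the GC-rich end is above 0.

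Markers of several other tissues were highest in this library too. The 7 cardiomyocyte markers had a summed level of 23099 and 21871 FPKM in the controls and 24282 and 23098 FPKM in the Tbx20_OE hearts. Of 6 atrial markers 5 were highest in control replicate 2, and their sum was 128 and 3698 FPKM in the controls and 239 and 132 FPKM in the Tbx20_OE hearts, with Bmp10 listed at 0 in all libraries. The sum of the 4 adipocyte markers was 37.5 FPKM in that library and no more than 2.16 FPKM in the rest, that of 4 epicardial and mesothelial markers 26.0 FPKM against no more than 2.20 FPKM, and that of 5 red cell markers 3015 FPKM against no more than 779 FPKM. Of the adipocyte markers 3 were highest in control replicate 2, with Cfd at 33.5 FPKM. Plin1 was highest in Tbx20_OE replicate 2, at 0.172 FPKM against 0.0829 FPKM in control replicate 2. Of the red cell markers 4 were highest in control replicate 2, but Hba-a1 was at 0.290 FPKM there against 254 and 155 FPKM in Tbx20_OE. In control replicate 1 Hba-a1 was at 0.0071 FPKM. Its paralogue Hba-a2 was at 1602 FPKM in control replicate 2 and at no more than 48.6 FPKM in the rest. How reads were divided between Hba-a1 and Hba-a2 was not tested. Within the cardiomyocyte markers, Atp2a2 was at 720 FPKM in control replicate 2 against 1512 to 2133 FPKM in the rest and Pln at 934 FPKM against 1805 to 2118 FPKM, both low like Prkaa2, while Tnni3 was high at 8625 FPKM against 4864 to 6644 FPKM, like Stk11. Only the fibroblast, smooth muscle and macrophage sums separated the groups, as the values of Prkaa1, Prkab1 and Prkab2 did, but the macrophage sum was lower in Tbx20_OE. Of all tested genes 28.1% were separated upward and 4.77% downward. The endothelial sum overlapped, at 102 and 77.7 FPKM in control and 119 and 98.5 FPKM in Tbx20_OE. The ventricular sum did too, at 20501 and 21215 FPKM in control and 21561 and 17629 FPKM in Tbx20_OE. Each smooth muscle marker separated the groups. Of the fibroblast markers only Dcn did (302 and 254 FPKM in control, 391 and 311 FPKM in Tbx20_OE), while Col1a1, Pdgfra and Tcf21 overlapped. Of the macrophage markers only Cd14 did (12.3 and 12.5 FPKM in control, 5.74 and 9.30 FPKM in Tbx20_OE), while Cd68 and Csf1r overlapped. The 4 fibroblast markers summed to 286 to 324 FPKM in control and 335 to 420 FPKM in Tbx20_OE, the 3 smooth muscle markers to no more than 64.6 FPKM and to 71.9 to 104 FPKM, and the 3 measured macrophage markers to 26.3 to 26.9 FPKM and 20.1 to 25.8 FPKM. The part of these cell types in the Prkaa1, Prkab1 and Prkab2 values was not tested. The part of any atrial, adipose, epicardial or red cell RNA in the low Prkaa2, Prkab2 and Prkag2 values of control replicate 2 was not tested. Among the atrial markers, Myl7 was at 958 FPKM in control replicate 2 and at no more than 4.77 FPKM in the rest. Sln was at 613 FPKM there and at no more than 2.14 FPKM in the rest. Whether the same parts of the heart went into each library was not tested. In RNA of heart tissue, fewer cells of a type and less RNA per cell cannot be told apart.

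**Figure D4:**
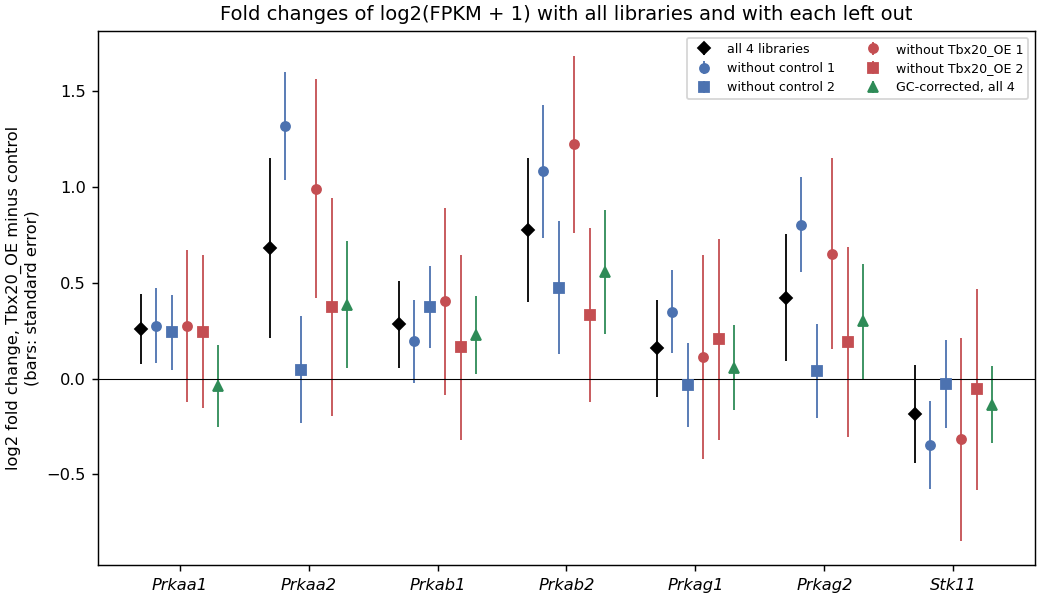
Log2 fold change of log2(FPKM + 1), Tbx20_OE minus control (vertical axis, bars are standard errors), of the 7 tested genes with all 4 libraries, with each library left out, and with GC-corrected values. Prkaa2 moves from 1.32 without control replicate 1 to 0.05 without control replicate 2, while Prkaa1 stays between 0.24 and 0.28 in the fits that leave out a library and falls to -0.04 with GC-corrected values.

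The genes with a library pattern closest to that of the leading isoform of each class were found by the root mean square difference of their deviations over the 4 libraries. For Prkaa2 they were Gtf2h2 (0.013), Usp14 (0.019) and Ppp1r14c (0.019), and 79 genes lay within 0.1. For Prkab1 they were Ino80, Ppip5k1 and Gclc, from 0.0092 to 0.021, with 330 genes within 0.1. For Prkag1 they were Itsn2, Prpf39 and H6pd, from 0.0076 to 0.0083, and as many as 1280 genes lay within 0.1. Among the AMPK genes themselves Prkaa1 and Prkab1 were the closest pair (0.11), and Prkaa2 and Stk11 the most distant (0.77).

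Genes around AMPK did not pass the test either. The 10 lists of the pathway held 74 distinct genes, and of the 65 tested, Stk11 included, 0 passed in either direction (limma, adjusted p from 0.848 to 0.996), with 0 at an unadjusted p under 0.05. Their median log2 fold change was 0.17, against 0.15 over all genes, and without control replicate 2 it was 0.06 against 0.08. Both Tbx20_OE libraries lay above both controls for 17 of the 65, against 28.1% of all genes, and below them for 0, against 4.77%. The same counts for the AMPK genes were 3 of 7 and 0 of 7.

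Upstream of AMPK, Cab39, the scaffold that activates Stk11, was at 24.9 and 13.6 FPKM in the control hearts and at 25.3 and 30.0 FPKM in the Tbx20_OE hearts. Its partner pseudokinase gene Stradb was at 26.0 and 11.5 FPKM against 22.6 and 30.8 FPKM. Both were lowest in control replicate 2, like Prkaa2. The list of upstream kinases and partners had a median of 0.17 (0.14 without control replicate 2), with 6 of 7 tested genes positive. Ppm1a, a phosphatase gene linked to AMPK dephosphorylation, was at 39.6 and 20.9 FPKM against 39.9 and 46.4 FPKM, again lowest in control replicate 2. Of the related kinases that Stk11 activates, 7 of 9 were positive with a median of 0.09 (-0.04 without control replicate 2), and Nuak1 had the smallest p (4.54 and 2.36 FPKM against 3.65 and 8.18 FPKM).

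Among AMPK substrates of lipid metabolism, Acacb, the acetyl-CoA carboxylase whose malonyl-CoA restrains fatty acid entry into mitochondria, was at 24.0 and 14.8 FPKM in the control hearts and at 21.5 and 24.9 FPKM in the Tbx20_OE hearts. The malonyl-CoA and carnitine shuttle list had a median of 0.26 (0.09 without control replicate 2), and 4 of its 6 tested genes had both Tbx20_OE libraries above both controls, against 28.1% of all genes. One was Cpt1a, a carnitine palmitoyltransferase, at 5.44 and 3.88 FPKM against 6.20 and 6.15 FPKM. Eef2k, which restrains translation elongation, was at 3.70 and 2.81 FPKM against 4.98 and 4.33 FPKM and ranked first by unadjusted p among all list genes (log2 0.42, standard error 0.21, limma adjusted p = 0.848). Rps6kb1, a kinase downstream of mTOR, was at 4.25 and 2.59 FPKM against 4.44 and 6.20 FPKM. The medians were 0.14 for lipid substrates, 0.24 for growth and autophagy substrates and 0.16 for mTOR complex 1. Without control replicate 2 they were -0.05, 0.09 and 0.05.

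In the glucose lists Txnip, which restrains glucose uptake, was at 249 and 143 FPKM in the control hearts and at 94.6 and 145 FPKM in the Tbx20_OE hearts, the most negative fold change of the lists (log2 -0.68, standard error 0.39). The groups overlapped, since Tbx20_OE replicate 2 was level with control replicate 2. Ppargc1a, a coactivator of mitochondrial genes, had the most positive one (log2 0.92, standard error 0.81), from 45.2 FPKM in Tbx20_OE replicate 2 against 6.88 to 11.1 FPKM in the other 3 libraries. The median was 0.31 for substrates of glucose handling and mitochondria and -0.01 for glucose uptake, and 0.14 and 0.07 without control replicate 2. Adenine nucleotide turnover had the highest median of the lists, 0.39, with the adenosine kinase gene Adk at 97.6 and 35.2 FPKM against 93.3 and 110 FPKM, and it was 0.06 without control replicate 2. Without control replicate 1, 8 list genes passed as higher, namely Adk, Ak4, Ppp2ca, Ppm1a, Stradb, Cab39, Sesn1 and Ak3 (limma adjusted p from 0.0204 to 0.0480), with control replicate 2 as the lone control. That is 8 of 65, beside the 11.4% of all genes called higher in the same fit.

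**Figure D5:**
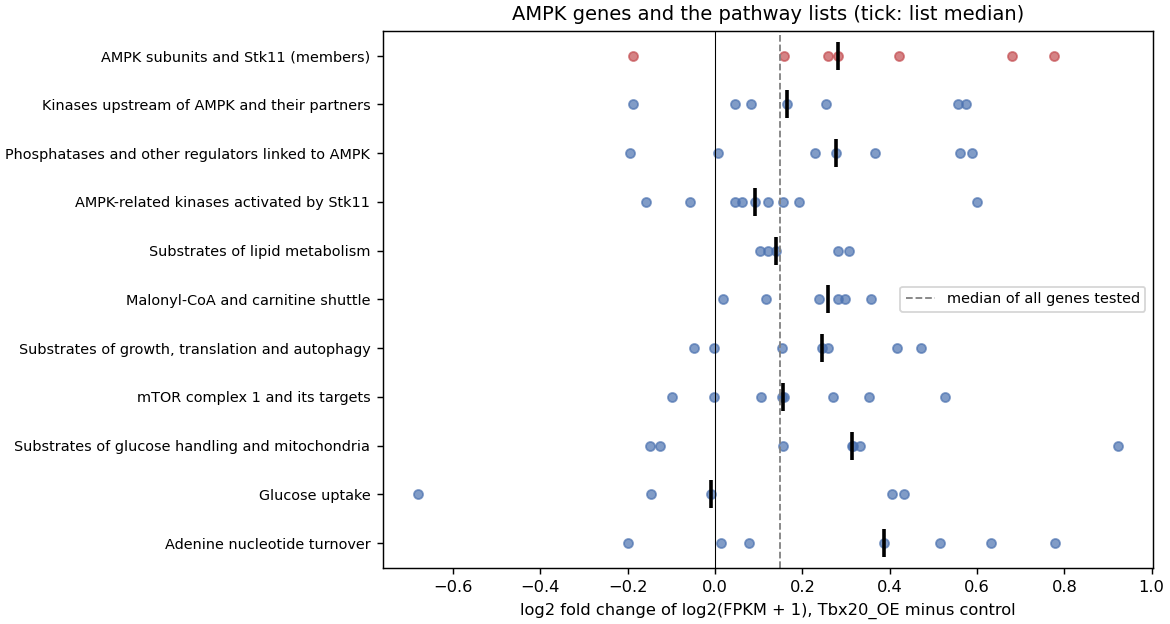
Log2 fold changes of log2(FPKM + 1), Tbx20_OE minus control (horizontal axis), of the 7 tested AMPK genes in red and of the tested genes of the 10 pathway lists in blue, with a tick at each median and a dashed line at the median of all tested genes, 0.15. List medians run from -0.01 for glucose uptake to 0.39 for adenine nucleotide turnover.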

How the data were processed

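Gene expression in total RNA of 4 mouse hearts was deposited by the authors as FPKM per gene, in a series-wide table and in a file per library, and both gave equal values for the 8 members. TopHat2 2.0.13, Cufflinks 2.1.1 and mm10 are named in the submitters' processing notes; the sources used here name neither annotation nor strand setting. The authors also deposited quantile-normalized FPKM. The authors' comparison holds FPKM per condition and p-values and q-values of cuffdiff 2.1.1, per the file headers, and its selection flags and term hit counts are deposited scores. Across genes, its FPKM was a median of 1.65 times the library mean in control and 1.45 times in Tbx20_OE.

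Genes below 0.3 FPKM in both of 2 libraries rarely shared a ratio between them, at most 0.588% within a log2 of 0.002. Depth could not be read from the values and is unknown, so counting error cannot be given. FPKM summed to between 452733 and 512225 per library. The 4 genes with a failed estimate were left out, and the highest entry was kept for the 258 symbols with several. Values were tested as log2(FPKM + 1) with limma 3.58.1 (mean-variance trend, group only) in R 4.3.3, for genes with a mean of at least 1 FPKM, with Benjamini-Hochberg adjustment over all 10513. Shares were tested by exact permutation in scipy 1.17.1. The limma test was tested on simulated data. The simulation had independent normal noise, without an outlying library or a dependence on GC content, so it cannot show how the test behaves with these. GC content and overlaps came from GENCODE M21, and 1 was added to file starts, because 12766 of 22140 loci then matched RefSeq starts, against 729 as given. GENCODE genes on the opposite strand overlap all members but Prkaa2 and Prkag3, so without strand their reads cannot be told apart. Other tools were Python 3.11.15, pandas 2.3.3, numpy 2.4.6 and matplotlib 3.10.9.

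The members and lists were chosen with earlier results of these data known. Named genes are the members, Tbx20, up to 4 genes per list with the smallest p, and the 3 genes closest in pattern to the leading isoform of each class, predicted and small RNA genes left out; Sesn1 was added after its values were seen, as 1 of the 8 called without control replicate 1. Alternatives covered the pseudocount, filter, scaling, source, limma settings and threshold, leaving out each library and a replicate block; GC-corrected values, in 10 bins, and a block with crossed numbers were chosen after seeing the data.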

Additional observations from a re-analysis of the deposited data

How the results depend on the processing

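The count of genes called, 2 over all genes, was 1 with a pseudocount of 0.1, with no filter on low values or with values from the files per library, 6 with a replicate block and 30 with a crossed block, chosen after seeing the data. It ran from 6 to 1433 with a library left out, the highest without control replicate 1, and 22 without control replicate 2. The AMPK genes called ran from 0 to 1 and the pathway genes called from 0 to 8 with a library left out, both highest without control replicate 1; under the other alternatives, the replicate block included, both counts were 0. The labels do not say that same-numbered hearts are pairs, and the deviations of same-numbered libraries correlated at -0.45. The Prkag1 log2 fold change turned to -0.00313 with median centring and ran from -0.034 to 0.35 with a library left out, and that of Prkaa1 turned to -0.039 with GC-corrected values; the other 5 tested members kept their sign in every alternative run. For the share differences in percentage points, leaving out a library gave -17.03 to 3.59 for Prkaa1, -3.59 to 17.03 for Prkaa2, -4.65 to 0.201 for Prkag1 and -0.970 to 0.433 for Prkag3, while Prkab1, Prkab2 and Prkag2 kept their sign. A replicate block cannot move a difference of means in this balanced design. Except for the libraries left out, the cause of these changes was not tested. With no filter on low values Prkag3 entered the test and did not pass (log2 0.03, standard error 0.17, limma adjusted p = 0.971). The depth is unknown, so counting error in low genes cannot be given.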
